A study of Mus musculus with 4 samples.

Results

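The neural differentiation time course of mouse embryonic stem cells that lack both Cdc14a and Cdc14b was set against that of wild-type cells, locus by locus, as a difference of differences in accessible chromatin. The assembled chromosomes hold 21887 protein-coding genes in the annotation, and the 20665 of them on the 19 autosomes were used. A locus was the mm10 gene body plus 50 kb on each side. Its value was the number of base pairs covered by accessible regions (peaks), written below as covered bp. For each genotype the log2 ratio of day 5 over day 0 was taken after 500 bp was added to each count. The genome median was subtracted, and the wild-type value was then subtracted from the knockout value. A positive difference therefore means that the knockout locus stood higher at day 5, relative to its own day 0 and to the typical locus, than the wild-type locus did. A covered base in at least 1 library was found at 19975 loci, and 690 had none.

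The 4 groups were knockout cells (Cdc14ab KO) at day 5, knockout cells at day 0, wild-type cells at day 5 and wild-type cells at day 0, with 1 library each. All came from embryonic stem cells of mouse blastocysts that had been kept on feeder cells in medium with LIF, the cytokine that holds such cells in the pluripotent state. The day 0 cells were taken from LIF medium. The day 5 cells had spent 5 days in N2B27, a serum-free neural medium, with the growth factors EGF and FGF2. Feeder cells were removed on gelatin before extraction, and every library carries the label clone 3. Nuclei were assayed by single-nucleus ATAC-seq on a platform that also reads RNA, after treatment of the cells with DNase I. In this assay a transposase inserts adapters into open DNA, and peaks mark where insertions pile up. As every group has 1 library, nothing below could be checked against replicates or tested. Whether that number marks the same derivation in both genotypes and at both days is not given, so a difference between clones, which need not cancel between the days, cannot be told apart from an effect of the knockout or of time.

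CDC14 phosphatases remove phosphate groups that cyclin-dependent kinases place on their targets, and are best known from budding yeast, where Cdc14 drives exit from mitosis. Neural differentiation in N2B27 takes stem cells out of the pluripotent state: enhancers of pluripotency genes lose accessibility, and those of neural progenitor, adhesion and axon guidance genes gain it. The study asked whether cells without the phosphatases leave the stem cell state as wild-type cells do. A difference of differences puts that question at each locus, because a ratio between the genotypes that is the same at both days cancels. With 500 bp added to each count, it cancels less fully at loci with few covered bp.

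The peak lists held 227878 and 222257 peaks in the knockout at day 5 and day 0, against 189571 and 198860 in wild type at day 5 and day 0. They covered 197.3 and 190.3 Mb in the knockout, against 162.5 and 168.8 Mb in wild type. Read depth is unknown, since the lists hold no counts, so a missing peak can mean fewer reads or closed chromatin. The median day 5 over day 0 ratio of a locus was −0.03 (log2) in the knockout and −0.23 in wild type. This difference of 0.19 is removed by the centring, so each value is relative to the typical locus. Peaks on the Y chromosome numbered 14 and 16 in the knockout at day 5 and day 0, against 20 and 16 in wild type at day 5 and day 0. At 3 of 10 genes examined there, Eif2s3y, Uty and Ddx3y, a peak lay at a gene end in wild type at day 5, and at 0 in each of the other libraries. Every value below rests on the wild-type day 5 library, as without it no wild-type time course can be had. What its Y-linked peaks mean for the autosomes was not tested.

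The difference was close to 0 at most loci, and its extremes were mostly at loci with little open chromatin. Over the 19975 covered loci the median was −0.00 and the standard deviation across loci 0.60, with quartiles at −0.24 and 0.24. At 856 loci (4.29%) the difference was at least 1 (log2) and at 553 loci (2.77%) it was −1 or below. Neighbouring genes share windows, and these loci fell into 382 and 376 separate stretches of the genome. Of the 856, 701 (81.9%) had a mean below 5000 covered bp over the 4 libraries, as had 287 (51.9%) of the 553. Among the 629 loci with at most 1000 covered bp, 44.5% lay at or above 1 and 16.5% at or below −1, and among the 6410 loci with over 20000 bp these shares were 0 and 0.51%. In such sparse loci 1 peak more or less moves the value by a large step.

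At the 17519 loci with a mean of at least 5000 covered bp, the order of the directions turned round. There 155 loci (0.885%) had a difference of at least 1 and 266 (1.52%) of −1 or below, in 108 and 225 stretches, and values reached 2.66 at the upper end. The last locus inside the upper limit was Tab2 (1.003) and the first outside it Sftpd (0.999), so the limit cuts a continuous range. Single loci named below belong to these well-covered loci unless said otherwise, while the counts and medians of gene lists, families, promoter groups and runs are over all covered loci.

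**Figure D1:**
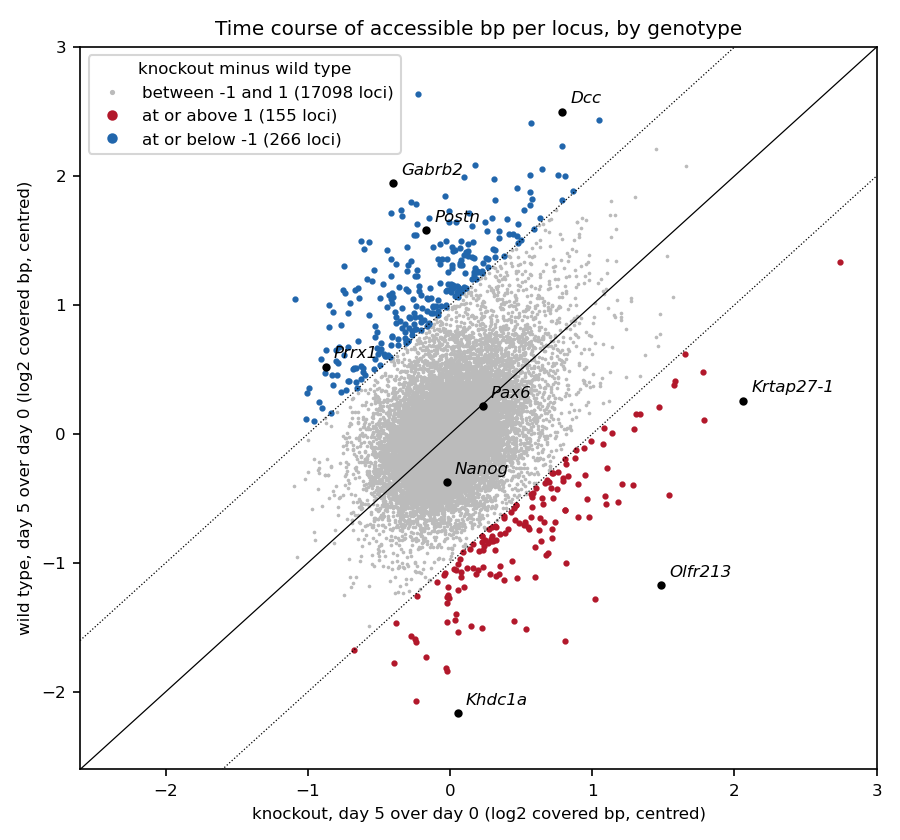
Centred change from day 0 to day 5 (log2 of covered bp) in the knockout (horizontal axis) and in wild type (vertical axis) at the 17519 loci with at least 5000 covered bp on average; each point is a locus, the solid line marks equal change, the dotted lines a difference of 1 in either direction, and the named loci are black. The 155 loci below the lower dotted line spread down the wild-type axis more than along the knockout axis, and so do the 266 above the upper one.

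At the 155 higher and 266 lower loci, both directions were carried more often by the wild-type than by the knockout time course. These loci were picked by the same values, and the share of all 17519 loci that moved in each genotype is not given. Wild-type peaks also turned over more genome-wide. Of them, 33.1% at day 5 were absent at day 0, and 36.1% at day 0 were absent at day 5. In the knockout these shares were 27.2% and 25.6%. Counting a change of at least 0.5 (log2, centred) as a move, 187 of the 266 lower loci (70.3%) gained covered bp in wild type and made no move in the knockout. A further 40 (15%) gained in wild type and lost in the knockout, and 22 (8.27%) lost in the knockout alone. Of the 155 higher loci, 79 (51.0%) lost covered bp in wild type without a move in the knockout, 42 (27.1%) gained in the knockout alone, and 31 (20%) did both. The median covered bp of the lower loci was 9465 and 11709 in the knockout at day 5 and day 0, against 11448.5 and 6292 in wild type at day 5 and day 0. For the higher loci it was 10746 and 7471 in the knockout, against 4665 and 8912 in wild type. The day 0 wild-type library was thus the lowest of the 4 at the lower loci, and the day 5 wild-type library the lowest at the higher loci.

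The peaks behind these sums were followed one by one. Of the wild-type day 5 peaks at the lower loci, 60.8% (2690 of 4424) overlapped no wild-type day 0 peak, against 33.1% of all autosomal peaks of that library. Of these 2690, 33.7% overlapped a knockout day 5 peak, against 43.5% of all autosomal peaks gained in wild type. A knockout day 0 peak was overlapped by 26.8% of the 2690, against 25.01% of all autosomal peaks gained in wild type. Of the wild-type day 0 peaks at the higher loci, 59.2% (849 of 1435) were gone at day 5, against 36.1% of all its autosomal peaks. Of those 849, 59.6% still overlapped a knockout peak at day 5, against 50.5% of all autosomal peaks lost in wild type. Knockout peaks turned over less unevenly: 38.4% of its day 5 peaks at the higher loci were absent at day 0, against 27.2% genome-wide, and 38.7% of its day 0 peaks at the lower loci were absent at day 5, against 25.6% genome-wide. These shares come from the same peak lists as the locus values and do not stand apart from them.

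Cdc14a and Cdc14b, the targeted genes, lay near the middle of the distribution. Cdc14a (chromosome 3, 116272553 to 116428741) covered 35049 and 34121 bp in the knockout at day 5 and day 0, against 19643 and 25154 bp in wild type at day 5 and day 0, a difference of 0.20. Cdc14b (chromosome 13, 64192545 to 64274988) covered 31563 and 30420 bp in the knockout, against 21802 and 21380 bp in wild type, a difference of −0.17. Both loci covered more bp in each knockout library than in either wild-type library. Where the deletions lie is not given in the labels, and a peak only marks open DNA, so neither locus is a check of the genotype.

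Loci of the core pluripotency genes differed little. All 12 were covered, 6 lay above 0 and 6 below, the median was 0.09 and none reached 1 in either direction. Of all loci with at least 5000 covered bp, 0.885% lay at or above 1 and 1.52% at or below −1. Nanog, a homeobox factor of the pluripotency network, covered 26195 and 27315 bp in the knockout at day 5 and day 0, against 17773 and 27180 bp in wild type at day 5 and day 0, a difference of 0.35. The low value is that of wild type at day 5, and the 3 others lie close together. Pou5f1, which encodes OCT4, covered 26304 and 27333 bp in the knockout, against 18630 and 25852 bp in wild type (0.22). Zfp281, a zinc finger factor of the same network, was the highest of the list at 0.41, with 27017 and 27814 bp in the knockout, against 16440 and 26039 bp in wild type. Sox2, partner of OCT4, stood at −0.08 and Utf1, a chromatin factor of stem cells, was the lowest at −0.17, with 19593 and 19532 bp in the knockout, against 16312 and 16472 bp in wild type.

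The 14 naive pluripotency loci had a median of 0.05, with 9 above 0, and their Krüppel-like factors pointed apart. Klf2 covered 20691 and 21099 bp in the knockout at day 5 and day 0, against 12016 and 20691 bp in wild type, a difference of 0.54. Klf4 covered 13032 and 14855 bp in the knockout, against 11175 and 9443 bp in wild type, a difference of −0.61. Klf2 thus stood out by a low wild-type value at day 5, and Klf4 by a low one at day 0. Zfp42, which encodes the naive marker REX1, covered 20295 and 21951 bp in the knockout, against 16654 and 28447 bp in wild type (0.45). Esrrb, an orphan nuclear receptor, stood at 0.06. Of the 14 formative and primed genes, markers of the states that follow the naive one, 8 lay above 0 (median 0.02); Wnt8a, a Wnt ligand, was highest at 0.80 and Fgf5 lowest at −0.46, while Otx2 stood at −0.04.

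Neural lists lay below 0, the neuron and synapse list furthest. Of 22 neural progenitor loci 13 lay below 0 (median −0.17), of 17 glial loci 12 (−0.25, but 0.01 with flanks of 100 kb), and of 24 neuron and synapse loci 18 (−0.36), against 50.3% of all covered loci. No member of these lists lay at or above 1. Of all covered loci 4.29% did, and of those with at least 5000 bp 0.885% did. Sox11, a transcription factor of committed neural progenitors, covered 10717 and 13779 bp in the knockout at day 5 and day 0, against 14900 and 10878 bp in wild type at day 5 and day 0, a difference of −0.98. Covered bp were lower at day 5 than at day 0 in the knockout and higher at day 5 in wild type. The early neuroectoderm gene Sox1 (−0.19) and the intermediate filament gene Nes (−0.37) were below 0, and the eye and forebrain regulator Pax6 (0.01) was level. Rax, a retinal homeobox gene, was the highest progenitor locus at 0.33.

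Among neuronal loci, Nav3, a microtubule-associated neuron navigator, was the single member at or below −1. It covered 32563 and 26222 bp in the knockout at day 5 and day 0, against 55476 and 22293 bp in wild type, a difference of −1.18. Map2, a dendritic microtubule protein, stood at −0.89, and Gria1, an AMPA receptor subunit, at −0.80. All 3 covered the most bp in wild type at day 5. Gria1 covered 16564 and 14357 bp in the knockout, against 19716 and 11064 bp in wild type, so the knockout also covered more at day 5 than at day 0, by less. Neurog2, a proneural factor, was highest at 0.47. Among glial genes Nfia, a nuclear factor of gliogenesis, was lowest, just short of −1, with 32020 and 21130 bp in the knockout, against 53570 and 20098 bp in wild type, and Gfap, the astrocyte filament gene, highest at 0.49.

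Axon guidance and adhesion lists also lay below 0, and the cadherin and adhesion list had the lowest median of the 29 lists. Of 38 axon guidance loci 31 lay below 0, with a median of −0.32. At or below −1 were 5 (13.2%, against 2.77% of all covered loci), and 0 were at or above 1 (against 4.29%). Over all loci with at least 5000 covered bp, the kind that fills this list, these shares were 1.52% and 0.885%. Among the receptors, Dcc, which binds netrin, covered 22967 and 13426 bp in the knockout at day 5 and day 0, against 48629 and 9663 bp in wild type at day 5 and day 0. The difference was −1.71, although the knockout also covered more at day 5 than at day 0. Unc5c, a second netrin receptor, covered 14351 and 23365 bp in the knockout, against 26114 and 18394 bp in wild type, a difference of −1.37, and here the genotypes moved in opposite directions. Among the ligands, the secreted semaphorin Sema3a covered 24439 and 24757 bp in the knockout, against 46444 and 21654 bp in wild type (−1.29). Sema3c stood at −1.61, and the transmembrane Sema6d at −1.46. The ligand Ntn1 (netrin 1) stood at −0.29, and the Slit receptors Robo1 and Robo2 at −0.36 and −0.28. The ephrin receptor Epha5 was highest at 0.58.

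Of 25 cadherin and adhesion loci 19 lay below 0, with a median of −0.60. At or below −1 were 7 (28%, against 2.77% of all covered loci), and 0 were at or above 1 (against 4.29%). Over all loci with at least 5000 covered bp, which make up most of this list, these shares were 1.52% and 0.885%. Cdh12, a type II cadherin, covered 17453 and 22178 bp in the knockout at day 5 and day 0, against 32737 and 15681 bp in wild type, a difference of −1.57. Pcdh9, a protocadherin, covered 32255 and 22169 bp in the knockout, against 37303 and 10486 bp in wild type (−1.44). Cdh2, N-cadherin of the neural epithelium, covered 23715 and 22982 bp in the knockout, against 36818 and 19836 bp in wild type (−1.02). Cdh1, E-cadherin of stem cells and epithelia, stood at 0.18. The epithelial adhesion gene Epcam stood at 0.01. Cdh13, a cadherin without a transmembrane domain, was highest at 0.64, with 113222 and 98910 bp in the knockout, against 64141 and 99884 bp in wild type. Across all 67 protocadherin symbols the median was −0.08, with 54 below 0, and most of these lie in clusters with shared windows, in 11 stretches.

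**Figure D2:**
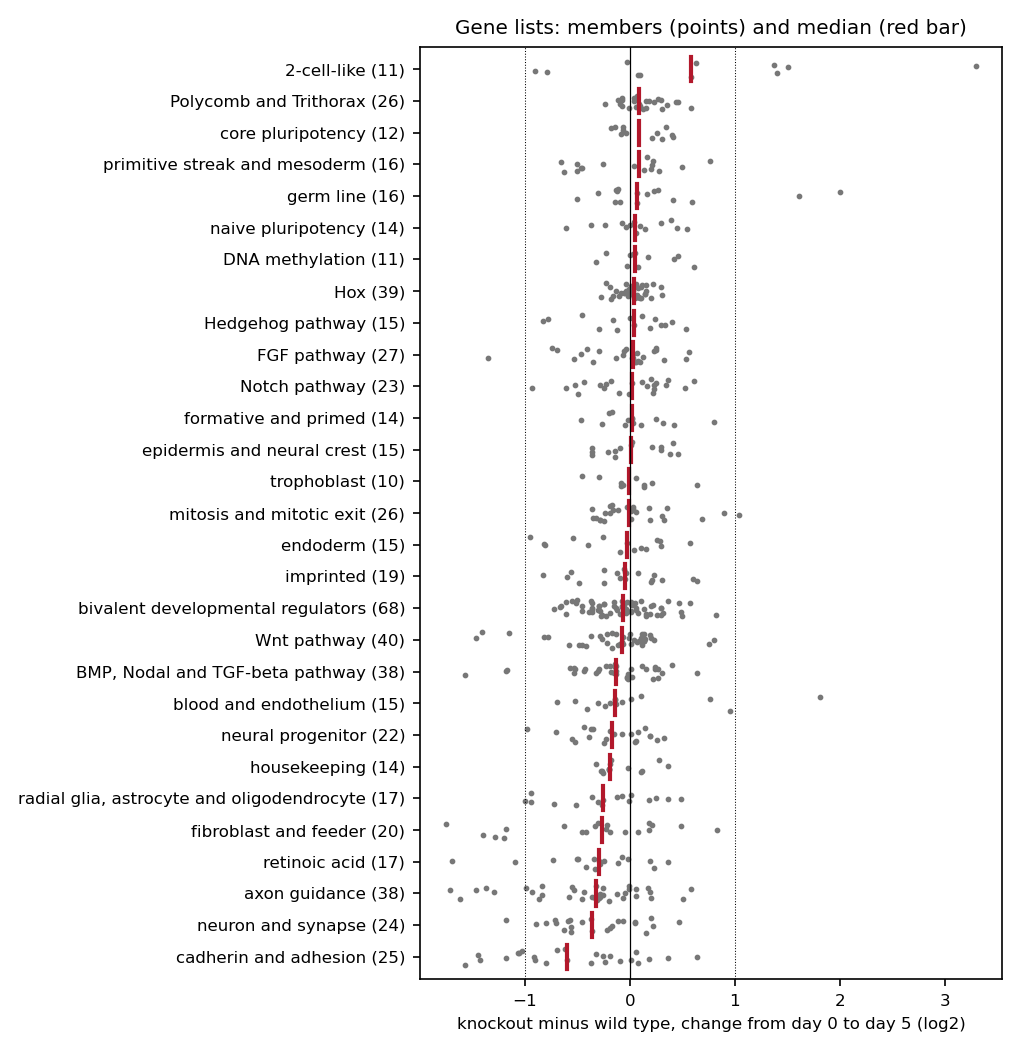
Knockout minus wild type difference of the change from day 0 to day 5 (log2) for the members of 29 gene lists (grey points, with the number of covered members in brackets) and the median of each list (red bar); dotted lines mark 1 and −1. Medians ran from 0.58 for 2-cell-like genes, whose points spread most, to −0.60 for cadherin and adhesion genes.

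Long genes lay below 0 as a class, whether or not they were listed. Among loci with at least 5000 covered bp, the median difference was −0.05 for the 1337 genes of 100 to 200 kb, −0.16 for the 717 of 200 to 500 kb and −0.36 for the 214 over 500 kb, and between −0.00 and 0.01 in each shorter class. Of those 214, 175 (81.8%) lay below 0. At or below −1 were 24 (11.2%, against 1.52% of all 17519 loci), and 0 were at or above 1 (against 0.885%). Both genotypes gained at these genes, with median centred changes of 0.29 in the knockout and 0.70 in wild type. The neuronal, guidance and adhesion lists are rich in such genes. Their members over 200 kb had medians of −0.56 (14 genes), −0.53 (17) and −0.74 (14), against −0.18 for the 873 genes of that length in no list. At or below −1 were 1, 4 and 5 of these members, against 46 of the 873. Members of these lists of up to 200 kb had medians of −0.12 (10), −0.25 (21) and −0.21 (10), against 0.00 for the 16067 unlisted genes of that length. Both comparisons are descriptions of loci that were chosen by name, with no test.

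**Figure D3:**
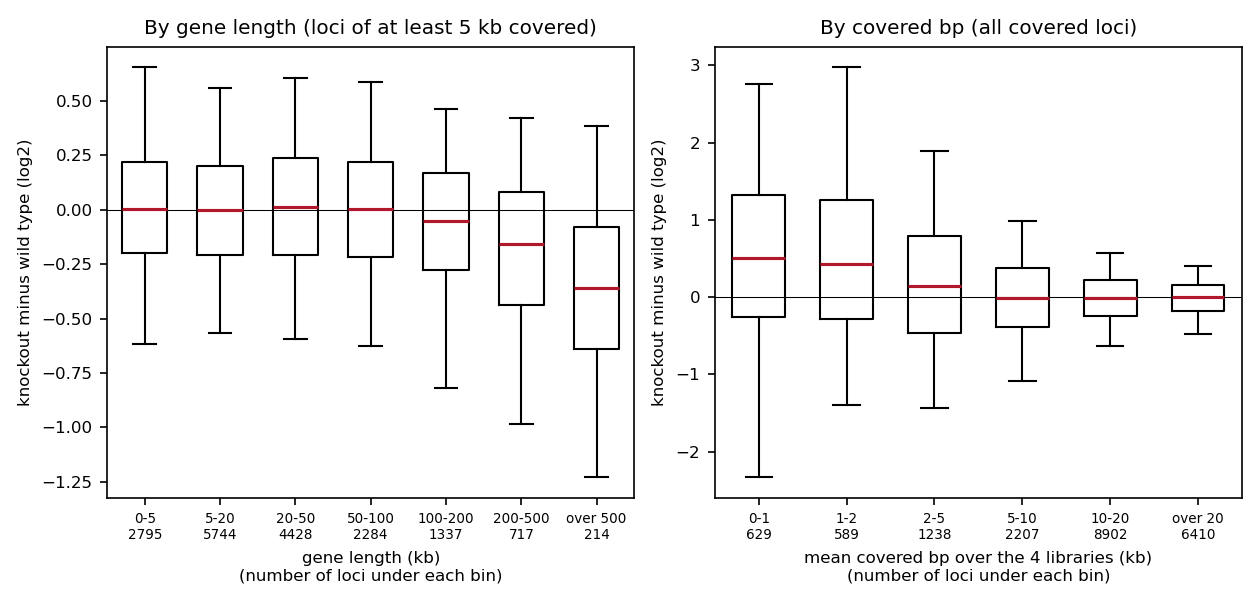
Knockout minus wild type difference (log2) by gene length in kb for loci with at least 5000 covered bp (left) and by mean covered bp in kb for all covered loci (right); boxes span the quartiles with the median in red, whiskers the 5th to 95th percentile, and the number of loci stands under each class. The medians on the left drop to −0.36 for genes over 500 kb, and the spread on the right narrows as covered bp increase.

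Fibroblast and feeder marker loci were below 0 in 14 of 20 cases (median −0.27). At or below −1 were 5 (25%, against 2.77% of all covered loci), and 0 were at or above 1 (against 4.29%). Over all loci with at least 5000 covered bp, which make up most of this list, these shares were 1.52% and 0.885%. Postn (chromosome 3, 54359267 to 54391041), which encodes the matrix protein periostin, covered 6013 and 6989 bp in the knockout at day 5 and day 0, against 10264 and 3716 bp in wild type at day 5 and day 0, a difference of −1.75. Wild type at day 0 was the lowest and wild type at day 5 the highest. The mesenchymal homeobox gene Prrx1 stood at −1.40 and the fibrillar collagen Col3a1 at −1.20, with 8960 and 10267 bp in the knockout, against 12774 and 7013 bp in wild type. The proteoglycan genes Dcn (−1.28) and Lum (−1.18) neighbour each other, share part of their windows and had means below 5000 bp. Tagln, a smooth muscle actin-binding protein, stood at 0.83. Summed over the list, the knockout covered 280.4 kb at day 5 and 285.8 kb at day 0, against 252.7 and 245.7 kb in wild type. Of its 9 members with a promoter entry, 7 and 8 had a promoter peak in the knockout, against 7 and 5 in wild type. How far feeder cells left in a library enter these values was not tested.

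Signalling lists were mostly close to 0 with a few low members. Of 17 retinoic acid loci 14 lay below 0 (median −0.29). Aldh1a1, an enzyme that makes retinoic acid, covered 8332 and 13569 bp in the knockout at day 5 and day 0, against 11622 and 6338 bp in wild type, a difference of −1.69, with the genotypes moving in opposite directions. Rarb, a retinoic acid receptor whose gene is itself induced by retinoic acid, covered 39606 and 34496 bp in the knockout, against 42787 and 19748 bp in wild type (−1.09). Rxrb, a partner receptor, was highest at 0.36, and the enzymes that break retinoic acid down stood at −0.29 (Cyp26b1), −0.11 (Cyp26a1) and −0.07 (Cyp26c1). The list's median moved above 0 when the gene body alone was counted.

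Of 38 BMP, Nodal and TGF-beta loci 26 lay below 0 (median −0.14). Inhba, an activin subunit, covered 8080 and 9056 bp in the knockout at day 5 and day 0, against 9312 and 3708 bp in wild type, a difference of −1.57. The receptor Bmpr1b stood at −1.18 and the secreted BMP antagonist Grem1 at −1.17. The ligand Tgfb3 was highest at 0.64, and Nodal itself stood at 0.02. Of 40 Wnt loci 23 lay below 0 (median −0.07) and 3 at or below −1 (7.5%, against 2.77% of all covered loci). These 3 were the receptor Fzd1 (−1.47, with a mean just below 5000 bp), the signal enhancer Rspo2 (−1.41) and the antagonist Dkk2 (−1.15). Rspo2 covered 14770 and 9481 bp in the knockout, against 20008 and 5265 bp in wild type. The antagonist Dkk1 stood at 0.75. Of 27 FGF loci 12 lay below 0 (median 0.03), and Fgf10, with 6337 and 12386 bp in the knockout against 8351 and 6969 bp in wild type, was lowest at −1.35. The Notch (0.02) and Hedgehog (0.04) lists were level, with Jag1, a Notch ligand, at −0.93 and the Hedgehog effector Gli3 at −0.83.

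Lists named by the study's subject, promoters that carry both activating and repressive histone marks, stayed near the middle. Of 68 bivalent developmental regulators 41 lay below 0 (median −0.07). Past 1 or −1 were 0, against 0.885% and 1.52% of all loci with at least 5000 covered bp. The 68 ran from Olig1, an oligodendrocyte factor, at −0.72 to Nkx2-1, a forebrain and lung homeobox gene, at 0.82. The 39 Hox genes, which share windows within clusters, had a median of 0.04 and ran from −0.28 (Hoxc11) to 0.31 (Hoxd4). Of 26 Polycomb and Trithorax genes, whose products write and read those marks, 18 lay above 0 (median 0.09). Rnf2, the ubiquitin ligase of Polycomb complex 1, was highest at 0.59, with 23362 and 20774 bp in the knockout at day 5 and day 0, against 12090 and 18742 bp in wild type. Ezh2, the methyltransferase of Polycomb complex 2, covered 14793 and 19715 bp in the knockout, against 8387 and 17710 bp in wild type (0.44).

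Mitotic genes were split evenly, 13 above and 13 below 0, with a median of −0.01. At their upper end were Anapc10 and Cdc27, which encode subunits of the anaphase-promoting complex, the ubiquitin ligase that starts anaphase and mitotic exit. Anapc10 covered 16545 and 13510 bp in the knockout at day 5 and day 0, against 9795 and 19301 bp in wild type at day 5 and day 0, a difference of 1.03. Cdc27 covered 25110 and 19844 bp in the knockout, against 13893 and 23800 bp in wild type (0.90). In both, wild type was lower at day 5 and the knockout higher. Anapc10 is among 5 neighbouring genes on chromosome 8, from Abce1 to Frem3, that all lay at or above 0.5. It shares part of its window with Abce1 (0.74), so these values are not separate. Bub1, a spindle checkpoint kinase, stood at 0.69. The mitotic kinase Plk1 was lowest at −0.36, and Fzr1, an activator of the complex, stood at −0.16. Of 14 housekeeping loci 10 lay below 0, with a median of −0.19, about as far from 0 as the neural progenitor list.

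The 2-cell-like list, genes active in the early embryo and in rare stem cells, had the highest median, 0.58 over 11 covered loci, with 8 above 0. At or above 1 were 4 (36.4%, against 4.29% of all covered loci and 28.5% of those under 5000 bp), and 0 were at or below −1. This list rests on little covered DNA. Zscan4d covered 2984 and 909 bp in the knockout at day 5 and day 0, against 0 and 1757 bp in wild type at day 5 and day 0. Tcstv1 covered 3824 and 1678 bp in the knockout, against 1211 and 2301 bp in wild type, a difference of 1.51. Spz1, the best covered member, stood at −0.90 with 11430 and 11373 bp in the knockout, against 13057 and 7742 bp in wild type. Zscan4f had no covered base. These genes have near-identical copies, so reads can be lost or shared between them, and the median was 0.10 with loci under 2000 bp left out. Of 16 germ line loci Dazl, an RNA-binding protein of germ cells, was highest at 2.00 with a mean below 5000 bp, and the list's median was 0.07.

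At most of the extreme loci a wild-type library covered the fewest bp, that of day 0 at the lower end and that of day 5 at the upper. These loci were picked by the difference itself. It is low where wild type at day 0 or the knockout at day 5 covers few bp, and high where either genotype's other day does. Which library is lowest thus follows in part from how the loci were picked. The wild-type lists also covered fewer Mb at both days. Gabrb2 (chromosome 11, 42419515 to 42632591), a subunit of the inhibitory GABA-A receptor, covered 3663 and 5127 bp in the knockout at day 5 and day 0, against 9322 and 2488 bp in wild type at day 5 and day 0, a difference of −2.34. These were 4 and 6 peaks in the knockout, against 11 and 3 in wild type. Fancf, a DNA repair gene of the Fanconi anaemia pathway, covered 5192 and 11922 bp in the knockout, against 12983 and 7155 bp in wild type (−2.13), with opposite movement in the genotypes. Of the 12 lowest loci 11 are given here, and the other 9 ran from −2.13 (Il1rap, a coreceptor of interleukin 1) to −2.02 (Arap2). They included the cytokine genes Il15 (−2.05) and Tnfsf8 (−2.06), the aggrecan-cleaving protease Adamts5 (−2.03), the sperm genes Spef2 (−2.08) and Spaca1 (−2.04), Antxr2 (−2.13) and Sla (−2.08). At 10 of these 11 loci wild type at day 0 covered the fewest bp of the 4 libraries, the exception being Fancf, where the knockout at day 5 did.

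At the other end, Olfr213 (chromosome 6, 116540455 to 116541438), an olfactory receptor, covered 10903 and 3669 bp in the knockout at day 5 and day 0, against 2404 and 7150 bp in wild type at day 5 and day 0, the highest difference at 2.66. These were 13 and 5 peaks in the knockout, against 3 and 9 in wild type. Khdc1a, a gene of oocytes and early embryos, covered 9484 and 9353 bp in the knockout, against 848 and 6581 bp in wild type (2.22). Its 1 peak in wild type at day 5 stands against 8 at day 0. Krtap27-1, a keratin-associated protein of hair, covered 11528 and 2453 bp in the knockout, against 6524 and 6371 bp in wild type (1.80), so that here the knockout made the move. Clec4e, a C-type lectin receptor of myeloid cells, covered 6447 and 5581 bp in the knockout, against 1840 and 7260 bp in wild type (1.73). The other 8 of the 12 highest ran from 2.41 (Olfr917) to 1.71 (LOC115486419) and included the vomeronasal receptor Vmn2r2 (1.83) and the potassium channel gene Kcnj13 (1.82). None of the 12 belongs to a neural or pluripotency list, but these lists hold only 12 to 24 covered loci each, so few could. At 10 of the 12 wild type at day 5 covered the fewest bp, and at Gm9507 and Krtap27-1 the knockout at day 0 did.

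**Figure D4:**
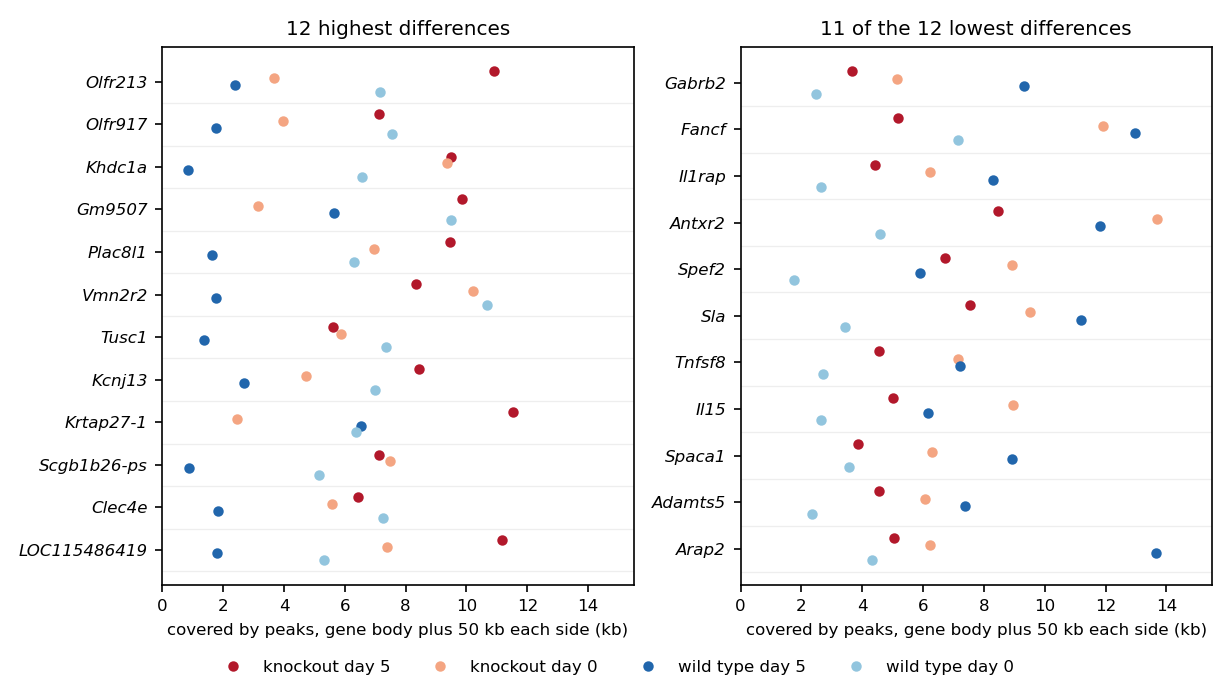
Covered kb at the 12 loci with the highest (left) and 11 of the 12 with the lowest (right) knockout minus wild type difference among loci with at least 5000 covered bp, in each of the 4 libraries (dark red, knockout day 5; light red, knockout day 0; dark blue, wild type day 5; light blue, wild type day 0). On the left the wild-type day 5 point is mostly the lowest of its row, and on the right the wild-type day 0 point is.

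**Figure D5:**
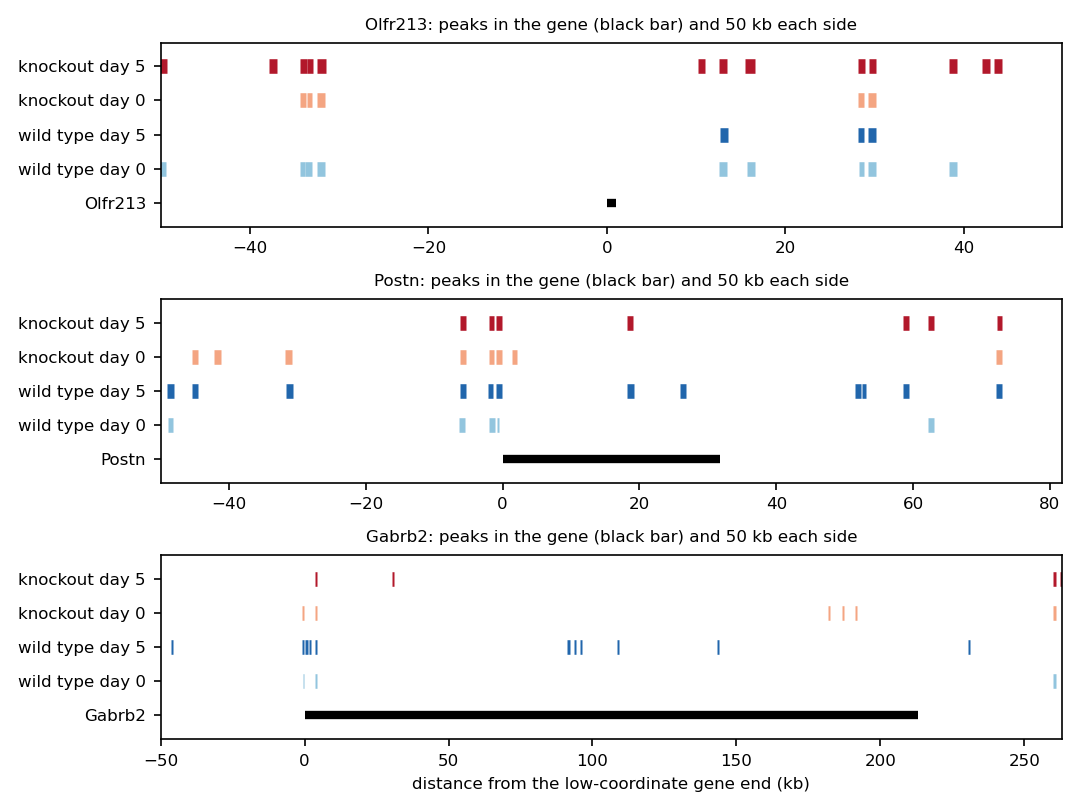
Peaks (coloured blocks) at Olfr213, Postn and Gabrb2 in each library, plotted by distance in kb from the low-coordinate end of the gene, with the gene body as a black bar and 50 kb on each side. Olfr213 has 13, 5, 3 and 9 peaks, Postn 7, 8, 12 and 5, and Gabrb2 4, 6, 11 and 3, from the top row to the bottom.

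Promoters gave a narrower view of the same lists. A RefSeq window from 250 bases before to 50 after the start was found for 16457 loci (79.6%), of which 15956 were covered. At 953 of them (5.97%) the promoter peak appeared or disappeared between the days in 1 genotype only. Where it appeared in wild type only (279 genes), the locus difference had a median of −0.18 and 71.0% lay below 0; 27 lay at or below −1 (9.68%) and 0 at or above 1. Where it appeared in the knockout only (235 genes), the median was 0.11, with 17 at or above 1 (7.23%) and 7 at or below −1 (2.98%), against 4.66% and 2.72% of all genes with a promoter entry. Where it was lost in the knockout only (170 genes) the median was −0.16, and where it was lost in wild type only (269 genes) it was 0.11. The 33 promoters with a peak gained in the knockout and lost in wild type had a median of 0.39, and the 37 with the reverse one of −0.33. The promoter lies inside the locus window, so these signs follow in part from the measure.

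Shown here are 6 promoters whose peak pattern separates the genotypes, since in them the time courses part at a gene start; they were chosen after their values were seen. In each, the 250 bases before the start are given from RefSeq on GRCm38.p6, whose coordinates are those of mm10, 5′ to 3′ on the strand of the gene. Capitals mark matches, on either strand, to the CCAAT box, to GGGCGG (the GC box), to the AP-1 motif spelled TGANTCA, or to TATAAA (the core of the TATA box). These motifs do not overlap one another in the windows shown. Postn (chr3:54359017-54359266, plus strand), Inhba (chr13:16011601-16011850, plus) and Col3a1 (chr1:45311288-45311537, plus) had a promoter peak in the knockout at day 5 and day 0 and in wild type at day 5, and none in wild type at day 0. Gabrb2 (chr11:42420190-42420439, plus) and Cdh10 (chr15:18820079-18820328, plus) had one in wild type at day 5 only; peaks of the day 0 libraries near the low-coordinate end of Gabrb2 lie upstream of this window. Clec4e (chr6:123289872-123290121, minus) had one in every library but wild type at day 5.
Postn: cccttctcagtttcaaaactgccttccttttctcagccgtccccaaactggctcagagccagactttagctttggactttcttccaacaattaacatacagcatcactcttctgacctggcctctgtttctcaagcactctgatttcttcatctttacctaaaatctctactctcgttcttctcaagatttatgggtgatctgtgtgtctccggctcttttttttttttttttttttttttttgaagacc
Inhba: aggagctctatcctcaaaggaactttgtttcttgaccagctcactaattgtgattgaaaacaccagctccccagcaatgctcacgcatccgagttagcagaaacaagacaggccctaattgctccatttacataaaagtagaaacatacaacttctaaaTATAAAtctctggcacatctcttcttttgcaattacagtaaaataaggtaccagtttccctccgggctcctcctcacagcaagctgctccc
Col3a1: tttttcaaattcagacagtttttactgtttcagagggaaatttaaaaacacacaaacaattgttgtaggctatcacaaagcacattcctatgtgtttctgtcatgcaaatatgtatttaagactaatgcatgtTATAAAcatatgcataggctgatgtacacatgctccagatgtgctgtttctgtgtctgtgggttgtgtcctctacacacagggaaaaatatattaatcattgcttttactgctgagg
Gabrb2: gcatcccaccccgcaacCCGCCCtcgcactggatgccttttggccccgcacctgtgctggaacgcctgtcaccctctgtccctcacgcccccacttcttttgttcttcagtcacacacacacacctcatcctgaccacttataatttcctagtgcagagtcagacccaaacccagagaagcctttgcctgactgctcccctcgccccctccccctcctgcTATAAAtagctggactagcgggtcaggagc
Cdh10: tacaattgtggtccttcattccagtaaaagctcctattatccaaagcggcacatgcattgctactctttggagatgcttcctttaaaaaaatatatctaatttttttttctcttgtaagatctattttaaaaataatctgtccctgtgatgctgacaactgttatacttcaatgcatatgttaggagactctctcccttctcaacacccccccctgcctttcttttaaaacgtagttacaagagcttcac
Clec4e: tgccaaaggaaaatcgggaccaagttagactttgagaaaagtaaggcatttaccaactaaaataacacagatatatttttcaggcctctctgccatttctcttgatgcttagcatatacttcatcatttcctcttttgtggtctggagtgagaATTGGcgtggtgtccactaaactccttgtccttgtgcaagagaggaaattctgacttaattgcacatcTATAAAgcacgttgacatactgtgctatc

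Peaks were counted from 250 bases before to 50 after the start, and those found were 764 to 938 bp wide. At Inhba the wild-type peak at day 5 begins after the start, beyond the bases shown. At Postn they spanned chr3:54358226-54359104 in the knockout at day 5, chr3:54358267-54359141 in the knockout at day 0 and chr3:54358269-54359138 in wild type at day 5. The Gabrb2 peak spanned chr11:42419708-42420601 and the Cdh10 peak chr15:18820262-18821025, both in wild type at day 5. A TATAAA match was present in 4 of the 6 windows (Inhba, Col3a1, Gabrb2 and Clec4e). It was found in 11.7% of the 20085 RefSeq promoters of this length that were used, none of them on chromosome 18. CCAAT matched once, at Clec4e, on the reverse strand, and is found in 35.3% of all promoters. GGGCGG matched once, at Gabrb2, also on the reverse strand, and is found in 43.4%. TGANTCA matched none, and is found in 6.18%. CG dinucleotides numbered 3 at Postn, 3 at Inhba, 0 at Col3a1, 8 at Gabrb2, 2 at Cdh10 and 3 at Clec4e, against a median of 10 over all promoters. With 6 windows chosen by their peaks, these letters describe the windows and nothing else.

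Clusters of neighbouring genes stood together in both directions. A run was taken as at least 5 neighbouring covered genes all at or past 0.5 in 1 direction. There were 99 higher runs with 781 genes and 63 lower runs with 392 genes, and the median gene had at least 5000 covered bp in 25 and 36 of them. Windows of neighbours overlap, so a run often restates a few peaks. On chromosome 8, the 13 genes from Retn, a hormone gene, to Cd209g, within a cluster of C-type lectin genes, covered 34825 and 28607 bp between their outer ends in the knockout at day 5 and day 0, against 15296 and 31801 bp in wild type at day 5 and day 0. Their median was 1.04. On chromosome 7, the 8 genes from Zfp976 to Zfp936, zinc finger and vomeronasal receptor genes, covered 34550 and 37030 bp in the knockout, against 11594 and 38188 bp in wild type (median 1.15). On chromosome 10, the 11 genes from Gm7137 to Lrrc3, around a keratin-associated protein cluster, covered 16311 and 8219 bp in the knockout, against 8375 and 14903 bp in wild type (1.40). The first and second of these runs follow a low wild-type value at day 5, and in the third run the knockout also gained.

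Among the lower runs, the 7 genes from Ccl2 to Tmem132e on chromosome 11, most of them chemokine genes, covered 25215 and 33047 bp in the knockout at day 5 and day 0, against 32986 and 19857 bp in wild type (median −1.72). The 9 genes from Atp6v1g1 to Astn2 on chromosome 4, a stretch with the extracellular matrix gene Tnc and the neuronal migration gene Astn2, covered 118760 and 124798 bp in the knockout, against 151752 and 70515 bp in wild type (−0.99). From Pcdh9 to Bora on chromosome 14, a stretch with the eye regulator Dach1, 6 genes covered 156884 and 117813 bp in the knockout, against 192824 and 95898 bp in wild type (−0.84). From Cenpp to Ogn on chromosome 13, 5 genes with the small matrix proteoglycans Ecm2, Aspn, Omd and Ogn covered 13739 and 18629 bp in the knockout, against 13263 and 8259 bp in wild type (−1.06). The last of these was lower at day 5 than at day 0 in the knockout, while that from Pcdh9 to Bora was higher at day 5 in both genotypes and more so in wild type.

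Receptor gene families with sparse loci spread wide. The 974 olfactory receptor loci had a median of 0.27, with 259 (26.6%) at or above 1 and 90 (9.24%) at or below −1. These shares were 4.29% and 2.77% over all covered loci, and 28.5% and 11.7% over all loci with a mean under 5000 bp. The 187 olfactory loci with at least 5000 covered bp had a median of 0.05. The 231 vomeronasal receptor loci had a median of 0.73, with 101 (43.7%) at or above 1 and 5 (2.16%) at or below −1. The 34 of them with at least 5000 covered bp had a median of 0.15. No covered base was found at 5 and 30 vomeronasal loci in the knockout at day 5 and day 0, against 77 and 26 in wild type at day 5 and day 0. Zinc finger genes named Zfp were well covered and tilted the same way, with 259 of 386 above 0 (median 0.14). At or above 1 were 17 (4.40%, against 4.29% of all covered loci), and at or below −1 were 3 (0.777%, against 2.77%). Over all loci with at least 5000 covered bp these shares were 0.885% and 1.52%. The 351 Zfp loci with at least 5000 bp had a median of 0.13. Collagen genes tilted the other way, with 31 of 42 below 0, a median of −0.28 and 4 at or below −1 (9.52%, against 2.77% of all covered loci). Of the 42, 41 had at least 5000 covered bp, and over all such loci 1.52% lay at or below −1. Ribosomal protein genes of the small (0.10) and large (0.03) subunit were near 0. By chromosome, medians ran from −0.08 on chromosome 3 to 0.06 on chromosome 5.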

How the data were processed

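The assay was single-nucleus ATAC-seq in 4 libraries, 1 per group, grouped by genotype and day from the labels. What the authors deposited for each library is a list of peaks in 3 columns, the chromosome, start and end; the deposited unit is a position, with no count or score. Per the file headers, cellranger-arc 2.0.0 called peaks per library on mm10. Per the submitters' processing notes, the tools included Scanpy 1.7.2 beside Cell Ranger ARC 2.0.0, and the build was mm10. No step after peak calling is given in the sources used here, and depth per library is unknown.

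Gene positions came from the GRCm38.p6 RefSeq table, and covered bp were summed over each gene body plus 50 kb on each side with Python 3.11.15, NumPy 2.4.6 and pandas 2.3.3; figures used matplotlib 3.10.9. The pseudocount was 500 bp. Each genotype was centred on its median over covered autosomal loci. Loci past 1 or −1 (log2) count as higher or lower. The script was tested on simulated peaks. With 1 library per group there was no test, no p-value and no error across replicates, and standard deviations are across loci.

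The members, gene lists and rules were chosen with earlier results of these data known. The rule for names took Cdc14a, Cdc14b and 12 fixed genes (Pou5f1, Sox2, Nanog, Utf1, Klf4, Zfp42, Esrrb, Fgf5, Otx2, Sox1, Pax6, Nes), then the 12 highest and 12 lowest loci with a mean of at least 5000 bp (1 gene per set of overlapping windows), the 15 highest and 15 lowest list members with that mean, each list's highest and lowest member with at least 2000 bp, and the ends of runs described. Others, and the Krtap symbols, were chosen after their values were seen. Families are symbols that share a prefix, and near-identical copies can share or lose reads. Alternatives were other pseudocounts, windows, minimum means and centrings, numbers of peaks, equal numbers of peaks, peaks away from gene ends, and 1 gene per set of overlapping windows. Loci of 2 genes that the rule or lists hold are not reported here by name; they remain in the counts and medians.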

Additional observations from a re-analysis of the deposited data

Results flagged for a closer look

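At 8 of the 12 highest loci covered bp were higher at day 5 in the knockout and lower at day 5 in wild type. Both changes reached 0.5 in size (log2, centred) at 4 of them: Olfr213 (difference 2.66), Olfr917 (2.41), Kcnj13 (1.82) and LOC115486419 (1.71). At all 11 of the lowest loci given, covered bp were lower at day 5 in the knockout and higher in wild type, and both changes reached 0.5 in size at 5, Fancf (−2.13), Antxr2 (−2.13), Tnfsf8 (−2.06), Il15 (−2.05) and Spaca1 (−2.04). They did so too at the list members Aldh1a1 (−1.69), Prrx1 (−1.40) and Unc5c (−1.37). With 1 library per group, the difference was not tested at any of them.

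Peaks on the Y chromosome numbered 14 and 16 in the knockout at day 5 and day 0, against 20 and 16 in wild type at day 5 and day 0. At 3 Y-linked genes a peak lay at a gene end in wild type at day 5, and at 0 in the other libraries. Their part in the autosomal differences was not tested.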

How the results depend on the processing

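No paired analysis was possible because each group holds 1 library. Of 856 higher and 553 lower loci, counts became 265 and 292 with a pseudocount of 2000 bp, 1498 and 1005 with the gene body only, and 261 and 210 with 1 gene per set of overlapping windows. With minimum means of 2000 and 5000 bp the higher count was 387 and 159, and with 5000 bp, recentred, the lower count was 260. The lower count was 839 with flanks of 10 kb and 836 with peaks over 2 kb from gene ends only. Other settings moved neither count by over 1.5 times. Fewer loci enter under the minimum means and the single-gene setting; otherwise the cause was not tested.

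Of 97 values of list medians past 0.2 in size, 89 moved by less than 0.2. The glial median was 0.013 with flanks of 100 kb and −0.049 with the gene body only. The retinoic acid median was 0.046 with the gene body only and −0.76 with 1 gene per set of windows (4 genes). The 2-cell-like median was 0.24 with a pseudocount of 2000 bp, 0.10 with a mean of at least 2000 bp, 0.052 with peaks away from gene ends and 1.42 with 1 gene per set of windows (5 genes); with a mean of at least 5000 bp too few members were left for a value. Plac8l1 turned to −0.42 with flanks of 10 kb and Kcnj13 to −0.038 with the gene body only. Of 40 named loci past 1 in size, 30 stayed past it with flanks of 100 kb and 28 of 35 with the gene body only. The median of genes over 500 kb ran from −0.39 to −0.24 over the settings.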

Other observations

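Some gene families outside the lists lay mostly to one side of 0, all described without a test. Of 19 killer cell lectin-like receptor loci (Klr), which act on natural killer cells, 15 lay below 0, with a median of −0.28, 7 at or below −1 (36.8%, against 2.77% of all covered loci) and 0 at or above 1. The 9 of them with at least 5000 covered bp had a median of −0.04. Over all loci with a mean under 5000 bp, 11.7% lay at or below −1 and 28.5% at or above 1. Of 58 serine protease inhibitor loci (Serpin) 35 lay below 0. At or below −1 were 12 (20.7%, against 2.77% of all covered loci), and at or above 1 were 4 (6.90%, against 4.29%). For all loci with a mean under 5000 bp these shares were 11.7% and 28.5%. The 58 had a median of −0.17, as had the 33 with at least 5000 bp. A lower run from Serpina5 to Serpina3i on chromosome 12 holds 7 Serpin loci. Its genes covered 6831 and 11845 bp in the knockout at day 5 and day 0, against 7230 and 4281 bp in wild type at day 5 and day 0.

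Loci of the drug-metabolising Ugt enzymes leaned the other way. Of 22 UDP-glucuronosyltransferase loci (Ugt), which share 5 stretches, 18 lay above 0, with a median of 0.40, and the 11 with at least 5000 bp had a median of 0.41. Of 100 cytochrome P450 loci (Cyp) 17 lay at or above 1 (17%, against 4.29% of all covered loci) and 2 at or below −1 (2%, against 2.77%). Over all loci with a mean under 5000 bp these shares were 28.5% and 11.7%. Of the 100, 55 lay above 0 and the median was 0.09, while the 55 with at least 5000 bp had a median of −0.03. The Klr and Serpin families sit at few places in the genome (6 and 17 stretches), so the counts of genes overstate the number of separate regions. Pregnancy-specific glycoprotein genes formed a higher run from Psg18 to Psg27 on chromosome 7, with 12712 and 11636 bp in the knockout at day 5 and day 0, against 3496 and 11185 bp in wild type at day 5 and day 0.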
